A study of Arabidopsis thaliana with 4 samples.

Results

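Heat shock transcription factors (HSFs) were followed in *A. thaliana* seedlings exposed to the microbial volatile organic compounds (mVOCs) of *E. amylovora*. The set held 10 loci, taken from the array by their locus names, which were chosen with earlier results of these data known. Together these loci carried 12 of the 43603 probes, or 10 of the 29030 loci named on the array. They were *HSFA1A* (AT4G17750), *HSFA1B* (AT5G16820), *HSFA1D* (AT1G32330), *HSFA2* (AT2G26150), *HSFA6A* (AT5G43840), *HSFA6B* (AT3G22830), *HSFA7A* (AT3G51910), *HSFA7B* (AT3G63350), *HSFB1* (AT4G36990) and *HSFB2A* (AT5G62020). *HSFA1A* and *HSFA1B* had 2 probes each and every other locus had 1. The first digit of a locus name is its chromosome, and no finer position is given because no genome of the build of the array was used.

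Both groups were whole Col0 seedlings, roots and shoots together, 7 days old by the study's text. One group was exposed for 16 h, by the study's methods, to the mVOCs of the bacterium growing on a separate medium in the same dish, and the other was not exposed. The 4 pairs, given as biological replicates 1 to 4, were each hybridised to 1 two-colour array with the exposed sample in Cy5 and the control in Cy3. The dyes were not exchanged, so an effect of the dye on a probe and an effect of exposure cannot be told apart. Whole seedlings were used, so fewer cells of a type and less RNA per cell cannot be told apart either.

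The free-text description held with all 4 samples names untreated embryonic stem cells. It goes against the organism, tissue, agent and title given for the same samples, and it was used for nothing. All 4 shoot markers (*RBCS1A*, *RBCS3B*, *CAB2* and *CAB3*) and all 4 root markers (*PYK10*, *COBL9*, *EXPA7* and *TIP2;3*) had a probe well above background in exposed and in control seedlings on 4 of 4 arrays. Between 74.6% and 78.8% of non-control spots were well above background in the exposed channel, and between 74.2% and 76.4% in the control channel. Replicate 4 stood apart. On it 8 spots had a local background over 100 units, on the remaining arrays 0 had, and the SD of its log2 ratios was 0.112, where replicates 1 to 3 had 0.155 to 0.187. Leaving out spots that the scanner software marked for a non-uniform background gave it an SD of 0.167. Values without these spots are given for the members and lists that they move most.

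HSFs bind heat shock elements in promoters and switch on genes of chaperones, the proteins that keep others folded. In *A. thaliana* the class A1 factors are present before stress and are held inactive by chaperones, and once freed they start the response and induce further factors, among them *HSFA2* and the *HSFA7* pair, which prolong it. Class B factors lack the activation motif of class A, and *HSFB1* and its relatives repress heat-induced genes when the stress is over.

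For the array probe of *HSFA2*, the member that changed most, and for that of *HSFA6A*, the member whose value depended most on the treatment of background and normalization, the probe sequence was at hand. The sequences are shown as given, and neither was placed on its transcript. Each has 60 bases, with a GC content of 43.3% for *HSFA2* and 38.3% for *HSFA6A*. Capitals mark the longest stretch that both probes share, which is 6 bases.
HSFA2 probe A_84_P19231: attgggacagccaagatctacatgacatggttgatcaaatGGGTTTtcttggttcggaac
HSFA6A probe A_84_P311113: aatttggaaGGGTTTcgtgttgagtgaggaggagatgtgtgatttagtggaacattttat

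After exposure *HSFA2* was the member that fell most, *HSFA1D* fell by a small amount, and *HSFB1* and 1 of the probes of *HSFA1A* rose by a small amount. *HSFA6B* lay at the threshold, and the other loci did not pass the test. Each value is the log2 ratio of exposed over control after background correction by the normexp model with an offset of 50 and loess normalization within the array, and the offset draws ratios of dim probes towards 0. The test was limma's, against a ratio of 0, with p-values adjusted by Benjamini-Hochberg over all 43603 probes. Of the 12 probes, 2 fell and 2 rose with an adjusted p below 0.05, while 8.58% of all probes fell and 9.62% rose. With the probes of a locus averaged, 3 of 10 loci fell and 1 rose, against 7.96% and 9.33% of all loci. The median log2 ratio was -0.09 over the 12 probes and 0.00 over all probes. With so few members, these counts describe the set and set it apart from nothing.

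**Figure D1:**
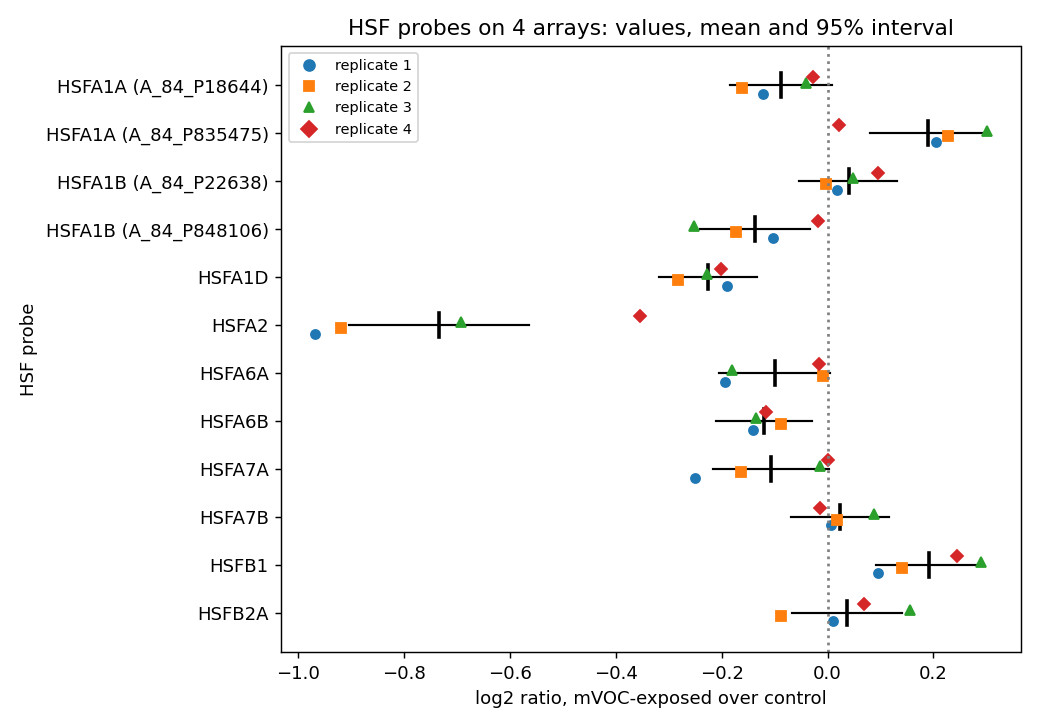
Log2 ratio of mVOC-exposed over control seedlings (horizontal axis) for each of the 12 HSF probes (vertical axis), with 1 symbol per array, the mean as a vertical bar and its 95% interval from limma as a line. The 4 values of *HSFA2* lie between -0.97 and -0.36, to the left of every other probe, and those of *HSFB1* lie between 0.10 and 0.29.

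*HSFA2*, a heat-induced activator that sustains chaperone gene expression, had median spot intensities of 322.5, 295, 354 and 336.5 units in exposed seedlings of replicates 1 to 4, against 573.5, 482, 494 and 476 units in control seedlings. In these deposited intensities, which are not scaled between the dyes, the exposed sample was the lower one on every array. Its log2 ratios were -0.97, -0.92, -0.69 and -0.36, with a mean of -0.73 ± 0.28 (SD, n = 4), which is 1.66-fold lower in exposed seedlings (limma, adjusted p = 9.28e-05). On each array this ratio ranked among the lowest 0.502% of all probes. Replicate 4 had the smallest fall, and it lay at -0.80 without the marked spots, which gave a mean of -0.85 (adjusted p = 3.58e-08). The scanner software's own ratio is taken after background subtraction without an offset and after its own dye normalization. It gave -1.11, -1.03, -1.02 and -1.15, with a mean of -1.08 (adjusted p = 0.00309). The slides gave -0.94 for replicates 1 and 2 and -0.52 for replicates 3 and 4. The call was lost with the variance of each probe taken alone (adjusted p = 0.16) and with normexp without an offset (adjusted p = 0.0953).

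**Figure D2:**
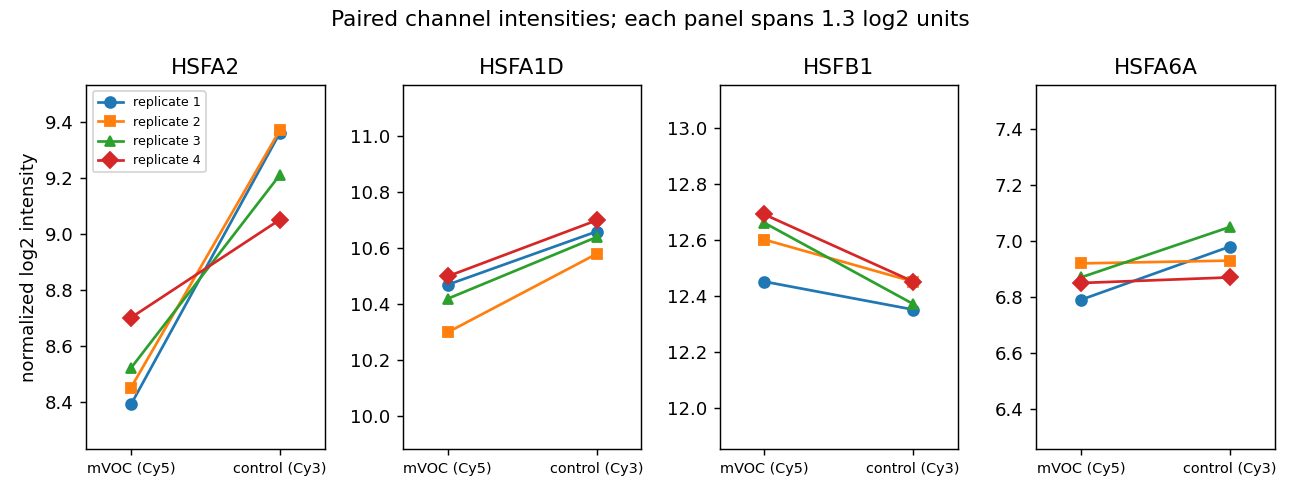
Normalized log2 intensity (vertical axis, after normexp, loess and scaling between arrays) of 4 HSF probes in mVOC-exposed (Cy5, left) and control (Cy3, right) seedlings, with a line joining the samples of 1 array and the same span in each panel. All 4 lines of *HSFA2* and of *HSFA1D* are lower on the exposed side, all 4 of *HSFB1* are higher there, and *HSFA6A* averages 6.86 in exposed and 6.96 in control seedlings, with 0 of 4 exposed samples well above background.

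Of all other loci, the 5 with the profile most like that of *HSFA2* were taken by Euclidean distance between log2 ratios over the 4 arrays. The nearest was AT4G37990 (*ELI3-2*) at a distance of 0.15, with a mean log2 ratio of -0.71. It was followed by AT2G47770 (*TSPO*) at 0.19, AT3G49620 (*DIN11*) at 0.25, AT3G17520 at 0.26 and AT3G11480 (*BSMT1*) at 0.26, with mean log2 ratios of -0.79, -0.67, -0.80 and -0.76. With 4 arrays this closeness describes size and spread and is not a test.

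Among the class A1 factors, which open the heat response, *HSFA1D* had 1584, 1164.5, 1534.5 and 1481 units in exposed seedlings, against 1563, 1165, 1472.5 and 1376 units in control seedlings. These deposited intensities overlap and are not yet scaled between the dyes, the Cy5 channel being the brighter one on each array, with medians of 394 to 460 units in Cy5 and 344.5 to 413 in Cy3. After normalization the log2 ratios were -0.19, -0.28, -0.23 and -0.20, a mean of -0.23 ± 0.041 (SD, n = 4, limma, adjusted p = 0.00339). The fall was of 1.17-fold and had the same direction on all 4 arrays and in both slides, at -0.24 and -0.22. It depended on the intensity-dependent normalization, since median centring gave -0.09 (adjusted p = 0.38), and the call was also lost with normexp without an offset (adjusted p = 0.1) and with the variance of each probe alone (adjusted p = 0.0994).

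The probes of *HSFA1A* had opposite signs. A_84_P835475 rose, with log2 ratios of 0.21, 0.23, 0.30 and 0.02 and a mean of 0.19 ± 0.12 (SD, n = 4, limma, adjusted p = 0.021), whereas A_84_P18644 had values of -0.12, -0.16, -0.04 and -0.03 and a mean of -0.09 (95% interval -0.18 to 0.01, adjusted p = 0.197). The first read 130.5 to 142 units in exposed and 114 to 129.5 units in control seedlings, and the second 278 to 452 units in exposed and 278 to 441 units in control seedlings. Without the marked spots A_84_P835475 had 0.14 on replicate 4 and a mean of 0.22 (adjusted p = 0.00387). Its rise was not called without replicate 1, 2 or 3 (adjusted p = 0.0847, 0.0548 and 0.0789), nor with median centring (0.07, adjusted p = 0.494). The mean of both probes was 0.05 (limma over loci, adjusted p = 0.406), and the difference between the probes was not tested.

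The probes of *HSFA1B* also differed in sign, and neither passed the test. A_84_P22638 had log2 ratios of 0.02, -0.00, 0.05 and 0.10, with a mean of 0.04 (95% interval -0.05 to 0.13, limma, adjusted p = 0.571), and A_84_P848106 had -0.10, -0.17, -0.25 and -0.02, with a mean of -0.14 (95% interval -0.24 to -0.03, adjusted p = 0.0668). A_84_P848106 passed the threshold with the marked background spots left out (-0.15, adjusted p = 0.0312), with median centring (-0.21, adjusted p = 0.0403) and with the software's ratio (-0.26, adjusted p = 0.00458). The mean of both probes was -0.05.

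*HSFA6A* and *HSFA6B*, class A factors linked to abscisic acid and drought as well as to heat, had negative ratios on all 4 arrays. *HSFA6A* was close to background, at 69, 71, 71 and 65 units in exposed seedlings against 91, 86.5, 90 and 82 units in control seedlings, over local backgrounds of 52 to 58 and 51.5 to 58 units. It was well above background in exposed seedlings on 0 of 4 arrays and in control seedlings on 3 of 4. Its mean log2 ratio was -0.10 (95% interval -0.204 to 0.004), or 1.07-fold lower in exposed seedlings. This difference did not pass the test (limma, adjusted p = 0.174). For a bound, any exposed value below the dimmest probe still counted as well above background on its array was raised to that probe. The normalized means were then compared. This also gave 1.07-fold and sets no lower limit, because the interval includes no change. Such a bound is also open to dye bias. The software's ratio gave -1.003 for the same spots (adjusted p = 0.00663), with values of -1.23, -0.91, -0.86 and -1.01, leaving out the marked background spots gave -0.14 (adjusted p = 0.0475), and median centring gave -0.29 (adjusted p = 0.00453). With loess kept, plain background subtraction gave -0.346 (adjusted p = 0.137) and normexp without an offset -0.274 (adjusted p = 0.228). The software's ratio also differs in its dye normalization. The size of the *HSFA6A* difference therefore rested on the treatment of background and normalization.

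**Figure D3:**
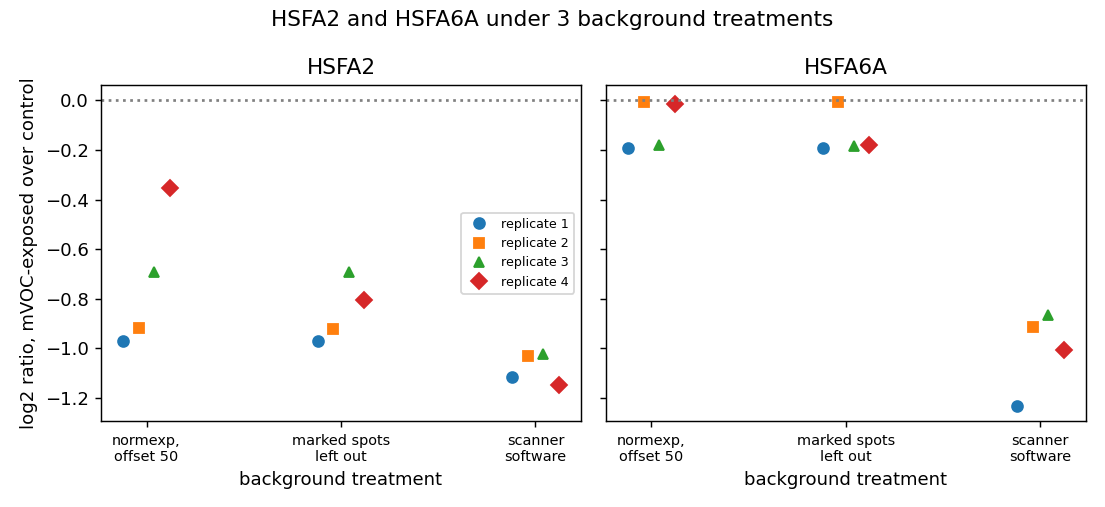
Log2 ratio of mVOC-exposed over control (vertical axis) on each array for *HSFA2* (left) and *HSFA6A* (right) under 3 treatments of the background (horizontal axis). The scanner software's ratio also has its own dye normalization in place of loess. *HSFA2* stays at or below -0.36 under each, and replicate 4 moves from -0.36 to -0.80 once marked spots are left out, whereas *HSFA6A* lies between -0.19 and -0.01 with normexp and between -1.23 and -0.86 with the scanner software.

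*HSFA6B* was measured well above background in both groups on all arrays, at 316 to 402.5 units in exposed and 298 to 385.5 units in control seedlings. Its log2 ratios of -0.14, -0.09, -0.14 and -0.12 had a small spread, with a mean of -0.12 ± 0.024 (SD, n = 4). This lay beside the threshold, with an adjusted p of 0.0654 in limma over probes and of 0.0451 in limma over loci. The call over loci was lost without replicate 1, 2, 3 or 4 (adjusted p = 0.154, 0.0724, 0.0982 and 0.137) and with slide as a random block (adjusted p = 0.0572), which leaves 2 member loci that fell. With the marked background spots left out the probe had -0.17 (adjusted p = 0.0223).

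The *HSFA7* pair, heat-induced activators downstream of the A1 factors, did not pass the test. *HSFA7A* had log2 ratios of -0.25, -0.16, -0.02 and 0.00, with a mean of -0.11 (95% interval -0.22 to 0.00, limma, adjusted p = 0.166). The larger values were those of slide 1, which alone gave -0.21 (adjusted p = 0.0351), the software's ratio gave -0.19 (adjusted p = 0.00534), and median centring turned the mean to 0.04. *HSFA7B* was well above background on 0 of 4 arrays in either group, at 69 to 71 units in exposed and 77 to 84 units in control seedlings, so no fold change is given.

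Of the class B repressors, *HSFB1* rose. It had 6592.5, 6161, 7755 and 7402.5 units in exposed seedlings, against 5159.5, 4368, 4935 and 4543 units in control seedlings. These values are not scaled between the dyes, and the Cy5 channel was the brighter one on each array. The log2 ratios were 0.10, 0.14, 0.29 and 0.24, with a mean of 0.19 ± 0.090 (SD, n = 4, limma, adjusted p = 0.0132), or 1.14-fold higher. It was higher on all 4 arrays, but slide 1 alone gave 0.12 (adjusted p = 0.193) and slide 2 alone 0.27 (adjusted p = 0.00201). Without replicate 4 it did not pass (0.18, adjusted p = 0.0747), and neither did it with plain background subtraction (adjusted p = 0.0866), without the offset (adjusted p = 0.142) or with the variance of each probe alone (adjusted p = 0.193). Median centring gave 0.41 (adjusted p = 4.17e-05). *HSFB2A*, of the same class, had log2 ratios of 0.01, -0.09, 0.16 and 0.07, with a mean of 0.04 (95% interval -0.07 to 0.14, adjusted p = 0.652), and its sign changed between settings.

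The other 11 loci of the HSF family, which has 21 loci in the lists used here, gave smaller values than *HSFA2*. Of these, 4 fell (limma over loci, adjusted p below 0.05), 0 rose and 7 did not pass, where 7.96% of all loci fell and 9.33% rose. Their median log2 ratio was -0.03, against 0.00 over all loci. The 4 were *HSFA8* (AT1G67970) at -0.26 (adjusted p = 0.00853), *HSFB2B* (AT4G11660), a repressor like *HSFB1*, at -0.18 (adjusted p = 0.0188), *HSFA3* (AT5G03720), which *DREB2A* activates under heat, at -0.14 (adjusted p = 0.0356), and *HSFA4A* (AT4G18880) at -0.16 (adjusted p = 0.0443). Each of the 4 was lower on all 4 arrays, but the count was 2, 1, 1 and 3 without replicates 1, 2, 3 and 4, 3 with slide as a random block and 0 with median centring. Of all loci, 4.06%, 5.98%, 5.09% and 5.23% fell without these replicates, 7.06% with slide as a random block and 21.3% with median centring. The count was 1 with plain subtraction, 0 on slide 1 alone and 2 on slide 2 alone, where 3.19%, 5.02% and 6.12% of all loci fell. *HSFA8* passed without each replicate in turn, whereas *HSFA3* did not pass with any replicate left out (adjusted p from 0.0536 to 0.137). But *HSFA8* did not pass with plain subtraction (limma over loci, adjusted p = 0.0625), median centring (-0.135, adjusted p = 0.157) or slide 1 alone (adjusted p = 0.0618). *HSFA5* (AT4G13980) had 0.09, *HSFB3* (AT2G41690) 0.05, *HSFA1E* (AT3G02990) 0.01, *HSFA4C* (AT5G45710) -0.01, *HSFC1* (AT3G24520) -0.03 and *HSFB4* (AT1G46264) -0.08. *HSFA9* (AT5G54070), a factor of maturing seeds, was well above background in exposed seedlings on 2 of 4 arrays and in control seedlings on 0 of 4. Its mean log2 ratio was 0.04 (95% interval -0.056 to 0.143 in limma over probes), or 1.03-fold higher. This did not pass (limma over loci, adjusted p = 0.515). A bound of the kind used for *HSFA6A* also gave 1.03-fold and sets no lower limit, because the interval includes no change. The direction of *HSFA9* was not settled, since 1 of the 4 arrays had a negative ratio and median centring gave -0.15.

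Among 22 genes that HSFs are known to activate, 6 fell, 1 rose and 15 did not pass, where 7.96% of all loci fell and 9.33% rose. Their median log2 ratio was -0.09, with 14 means negative and 8 positive. The list was chosen with earlier results of these data known, so its counts describe it and are no test. The falls were those of chaperones and their helpers, but other chaperones of the list did not pass. Of the small heat shock proteins that did not pass, *HSP17.4*, *HSP17.6C* and *HSP23.6-MITO* had -0.157, -0.073 and -0.006. *HSP17.6II*, *HSP17.6A*, *HSP17.6B*, *HSP15.7*, *HSP21* and *HSP18.2* had 0.007, 0.018, 0.027, 0.035, 0.044 and 0.094. *HSP70* (AT3G12580) had log2 ratios of -0.63, -0.75, -0.54 and -0.55, with a mean of -0.62 (limma over loci, adjusted p = 7.4e-05). *HSP90.1* (AT5G52640) had a mean of -0.50 (adjusted p = 0.000206), *HSP101* (AT1G74310), a disaggregase, -0.45 (adjusted p = 0.000499), *HOP3* (AT4G12400), a co-chaperone, -0.39 (adjusted p = 0.000549) and *FES1A* (AT3G09350), which protects HSP70, -0.29 (adjusted p = 0.00104). *HSP22.0* (AT4G10250), the other gene that fell, had -0.26 (adjusted p = 0.0122), and it was well above background in exposed seedlings on 1 of 4 arrays. Its size rested on the treatment of background and normalization, at -0.32 without the marked spots, -0.86 with plain subtraction and -1.37 with the software's ratio. *HSP22.0* did not pass without replicate 1 (adjusted p = 0.0596) or on slide 2 alone (adjusted p = 0.124). With median centring, 8 of the 22 genes fell and 3 rose, where 21.3% of all loci fell and 20.7% rose. Under it 5 of the 6 genes that fell in the main setting also fell, and *FES1A* did not pass (-0.17, adjusted p = 0.0794). *HSP70*, *HSP90.1*, *HSP101* and *HOP3* had smaller falls under it, at -0.33, -0.37, -0.34 and -0.27, and *HSP22.0* had -0.44. The gene that rose was *HSP26.5* (AT1G52560), a small heat shock protein, at 0.26 (adjusted p = 0.0276). It did not pass without replicate 3 (0.17, adjusted p = 0.0741) or replicate 1 (0.24, adjusted p = 0.105), nor with plain subtraction (adjusted p = 0.0763). *APX2* (AT3G09640), a known target of *HSFA2*, had -0.13 on the mean of 4 arrays and did not pass (adjusted p = 0.1), but with median centring it did (-0.30, adjusted p = 0.00212).

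Of 9 genes that regulate HSFs or act beside them, 7 fell and 0 rose, where 7.96% of all loci fell and 9.33% rose. Their median log2 ratio was -0.34. This list was chosen with earlier results of these data known, so its counts describe it and are no test. *MBF1C* (AT3G24500), a co-activator of thermotolerance, had -0.45, -0.54, -0.64 and -0.58 on the arrays, with a mean of -0.55 (limma over loci, adjusted p = 0.000102). *DREB2C* (AT2G40340) and *DREB2A* (AT5G05410), activators of *HSFA3*, had means of -0.39 (adjusted p = 0.00355) and -0.22 (adjusted p = 0.00573). The FKBP immunophilins *ROF1* (AT3G25230) and *ROF2* (AT5G48570), which modulate *HSFA2* activity, had -0.37 (adjusted p = 0.00142) and -0.34 (adjusted p = 0.000799). *HSP90.2* (AT5G56030) and *HSC70-1* (AT5G02500), chaperones that hold HSFs inactive, had -0.36 (adjusted p = 0.000412) and -0.20 (adjusted p = 0.00591), but with median centring these values were -0.03 and 0.08, so that the direction of *HSC70-1* turned. Under that setting the list median was -0.17, and 3 of the 9 genes fell, *MBF1C* at -0.25, *DREB2C* at -0.41 and *ROF2* at -0.20. There 2 rose, *HSBP* (AT4G15802) at 0.24 and *DPB3-1* (AT1G07980) at 0.21, beside the 21.3% and 20.7% of all loci that fell and rose. *ROF1* and *DREB2A* had -0.17 and -0.18 and did not pass (limma over loci, adjusted p = 0.067 and 0.0582).

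**Figure D4:**
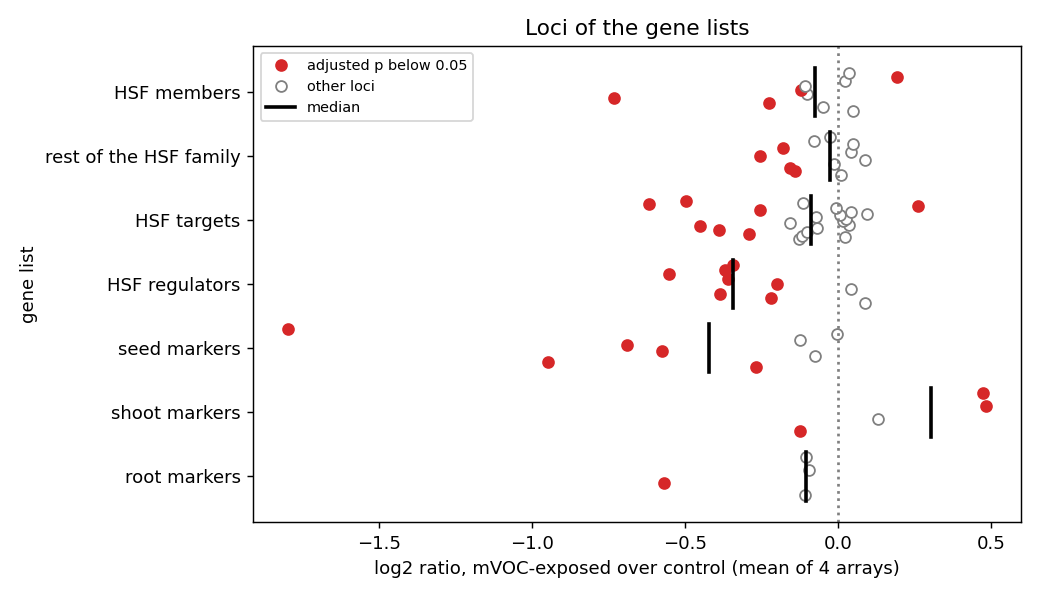
Mean log2 ratio of mVOC-exposed over control (horizontal axis) of each locus of 7 gene lists (vertical axis), with loci of adjusted p below 0.05 filled and the list median as a bar. The median is -0.34 for the HSF regulators and -0.07 for the HSF members, of which *HSFA2* at -0.73 lies farthest left, and 3 seed markers were well above background in exposed seedlings on 0 of 4 arrays, so that the positions of these are estimates near background.

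Markers of seed and shoot moved as well, and so did 1 of the 4 root markers. Of 8 genes of seed storage and oil bodies, 5 fell and 0 rose, where 7.96% of all loci fell and 9.33% rose. Their median log2 ratio was -0.42. The marker lists were also chosen with earlier results of these data known, so their counts are no test. The median was -0.53 without the marked spots, -0.87 without the offset, -1.03 with plain subtraction and -1.65 with the software's ratio. Their summed normalized intensity was 1090 to 1280 units in exposed seedlings against 1440 to 1970 units in control seedlings, and *SESA1*, *SESA3* and *SESA5* were well above background in exposed seedlings on 0 of 4 arrays. Each of the 5 fell least in replicate 4, as did *HSFA2* in the main setting. For *HSFA2* this order rested on the background treatment. Without the marked spots it had -0.80 on replicate 4 and -0.69 on replicate 3. With the software's ratio its largest fall, -1.15, was on replicate 4. Of the 4 shoot markers, *RBCS1A* and *RBCS3B* rose, both by 0.48, and *CAB2* had -0.12 (adjusted p = 0.041), a value that did not pass with any replicate left out or with slide as a random block (adjusted p = 0.0521). With median centring all 4 shoot markers rose, *CAB2* by 0.20. The shoot list had a summed intensity of 589000 to 680000 units in exposed and 482000 to 525000 units in control seedlings. Of the 4 root markers, *EXPA7* fell by 0.57, and the sums overlapped, at 83800 to 93000 units in exposed and 82400 to 91600 units in control seedlings. *PYK10*, *COBL9* and *TIP2;3* did not pass (limma over loci, adjusted p = 0.107, 0.204 and 0.0891). With median centring *EXPA7* fell (-0.43, adjusted p = 3.4e-06) and *PYK10* rose (0.35, adjusted p = 0.000202). The part of these tissues in the values of the HSFs was not tested.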

How the data were processed

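The authors deposited the output of Agilent Feature Extraction 11.5.1.1 for each of 4 two-colour arrays, with the median spot and local background intensity of each channel, not normalized. The deposited output also has the software's own log10 ratio, Cy5 over Cy3, taken after background subtraction and dye normalization. A deposited table of the series holds that log10 ratio for replicates 2 to 4, within rounding, and for replicate 1 the error of the ratio instead, so that it entered no test.

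Intensities were corrected in R 4.3.3 with limma 3.58.1 (normexp, offset 50) and normalized by loess, with control and outlier spots at no weight and then left out, and spots of 1 probe averaged. For each probe, and separately for each locus with its probes averaged, limma tested the mean log2 ratio against 0 after eBayes, two-sided, with Benjamini-Hochberg adjustment and a threshold of 0.05. The steps were also run on simulated data with a flat background and changes larger than that of any HSF in the main setting. That run does not bear on smaller changes or on uneven background. The RefSeq table (TAIR10.1) holds all 10 loci. Probe sequences came from the study's supplementary table. The array pairs its samples, and slide, read from the file headers, was tested as a block. Alternatives covered background, normalization, outlier and dim spots, variance, slide and each replicate left out.

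Members, gene lists and alternatives were chosen with earlier results of these data known. Named were all member probes, the rest of the family, the 5 loci nearest to *HSFA2* and, from the lists of targets and regulators, up to 6 genes each with the largest change among loci past the threshold with 1 direction on all arrays. *HSP22.0*, *APX2*, the small heat shock proteins that did not pass, *HSC70-1*, *HSBP* and *DPB3-1* were added after their values were seen.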

Additional observations from a re-analysis of the deposited data

Results flagged for a closer look

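None of the 12 HSF probes had an array that stood apart from the other 3 by Dixon's criterion for 4 values. Of the 58 loci of the other lists, 7 had one, where chance gives about 1 in 20 for independent loci. Loci that share an array are not independent, so this count is no test. In the seed list, replicate 4 stood apart for *CRU3*, at -0.27 against -1.19 to -1.16 on the other arrays, for *SESA2*, at -0.10 against -0.92 to -0.84, for *SESA3*, at -0.009 against -0.18 to -0.16, and for *SESA5*, at -0.40 against -2.45 to -2.14. With marked background spots left out, mean log2 ratios went from -0.947 to -1.134 for *CRU3* and from -0.689 to -0.887 for *SESA2*. They went from -0.125 to -0.148 for *SESA3* and from -1.797 to -2.229 for *SESA5*. The part of the marked spots in these flags was not tested. Replicate 3 stood apart for *HSP17.6B*, at 0.10 against -0.01 to 0.01, and for *DPB3-1*, at 0.22 against 0.03 to 0.06. Replicate 1 stood apart for the shoot marker *RBCS3B*, at 0.10 against 0.58 to 0.62.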

How the results depend on the processing

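Of the 12 HSF probes, 4 were called (7939 of all 43603 probes), 7 with the marked background spots left out (23.5% of all), 8 with the scanner software's ratio (30.4% of all), and 0 both with normexp without an offset and with the variance of each probe alone in limma. At an unadjusted p below 0.05, these last settings gave 6 and 4 HSF probes, beside 11085 and 8961 of all 43603 probes. After adjustment they called 20 and 6 of all probes, against 7939 in the main setting. Over all probes, 3352 were called with plain subtraction, 4401 without replicate 1, 13236 with the software's ratio and 17200 with median centring. With each replicate left out, 3 HSF probes were called each time, beside 10.1% to 15.2% of all probes. Of the member loci 2 to 3 were called, the lowest count being without replicate 4, beside 8.79% to 13.4% of all loci. Slide as a random block (consensus correlation 0.082) gave 4 HSF probes (16% of all probes), but over loci it lost *HSFA6B*, *HSFA4A* and *CAB2*. Leaving out both the marked spots and replicate 4, chosen after seeing the data, gave 3 HSF probes (12.4% of all probes). Signs turned for *HSFA7B*, which was not above background, with marked spots left out (-0.013), median centring (-0.177) and the software's ratio (-0.225), for *HSFA7A* with median centring (0.039), and for *HSFB2A* with the software's ratio (-0.033), slide 1 alone (-0.039) and without replicate 3 (-0.003, with a range of -0.003 to 0.078 over the replicates left out). The cause was not tested. *HSFA2* was negative under each of 17 settings, between -1.08 and -0.52, and was called in 15. The calls of the genes named from the lists were also lost without the offset and with the variance of each locus alone. Calls on 4 arrays rest on variance shared between probes, and signal near background limits *HSFA6A* and *HSFA7B*.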
